A study of Bos taurus with 16 samples.

Results

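Kidney RNA of cattle (Bos taurus) that had been amplified for 2 rounds was compared with kidney RNA amplified for 1 round, over the genes of a custom cDNA array with 2 dyes. The comparison takes the 4 arrays whose labels give the type Round 2 and the 4 whose labels give Round 1, which are 8 of the 16 arrays of the series. It covers 5537 of the 8448 features (spotted cDNA clones) on the array, for 4360 genes. These are the features that carry a listed gene and have a value in every kidney RNA of the series.

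The study asked how linear amplification alters an expression profile. Its title speaks of bovine embryos, whereas every array analysed here carries kidney RNA. The 8 RNAs are Kidney 1 and Kidney K, each as unamplified total RNA (round 0) and after 1, 2 or 3 rounds. Every RNA was hybridised on 2 arrays of opposite dye, with Cy3 or Cy5 on the kidney target, against a reference RNA that had itself gone through 2 rounds.

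All kidney RNA was isolated with Trizol, and all target cDNA was made with Superscript III reverse transcriptase and amino-allyl dUTP, to which the dyes were coupled. The round 1 group is therefore kidney RNA amplified once (replicates 1 and K), and the round 2 group is kidney RNA amplified again (replicates 1 and K). The sources used here do not give the breed, age or sex of the animals, or the tissue from which the reference came. Nothing in the labels tells whether Kidney 1 and Kidney K stand for different animals or for repeated amplifications, so a p-value below measures only the spread between these samples, which may be technical.

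In linear amplification, cDNA is primed on the polyadenylated end of the mRNA with a primer that carries a T7 promoter, and T7 RNA polymerase then copies it into many antisense RNA molecules. A further round makes cDNA again from that antisense RNA, generally with random primers, and transcribes it once more. Antisense RNA is known to become shorter over rounds and to keep mainly the polyadenylated end of the transcript, so a clone on the array reads the part of the mRNA that it happens to cover.

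The values below are log2 ratios with the kidney on top and the reference below, shifted so that the median feature of an array is 0. A ratio called above or below the reference is therefore above or below that median feature. A difference is round 2 minus round 1. The sources do not state which dye is on top in the deposited ratios. Kidney over reference is the likely direction, because the median of 20 features of kidney marker genes then lay between 2.10 and 3.02 on all 8 arrays, in both dye orientations. If the ratios run the other way, every sign below turns.

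Between 14165 and 16057 of the 16896 spots had a value on an array of rounds 1 and 2. Duplicate spots correlated at r = 0.496 to 0.822 within an array. Of the spots with a value, 7.27% to 21% had a log2 ratio that equals, to 3 decimals, that of 2 whole numbers up to 10, as very dim spots can give. On the round 1, replicate 1, Cy3 array, 1017 rows near the end are empty and the closing 69 rows hold whole numbers that are no ratios. These were left out, and 684 tested features rest on at most 1 spot on that array.

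The profiles of the 2 rounds were about as alike as the replicates of 1 round. Replicates 1 and K correlated at r = 0.735 across features at round 1 and at r = 0.752 at round 2. Across rounds, r was 0.717 within replicate 1 and 0.711 within replicate K. The other two pairs gave 0.759 for round 1 of replicate 1 with round 2 of replicate K, and 0.698 for round 1 of replicate K with round 2 of replicate 1. These correlations are across features, which are not independent replicates, and all RNAs share the reference. The spread of the ratios was also alike: their SD was 1.02 and 1.11 at round 1 and 1.03 and 1.07 at round 2, and 51.3% of features lay nearer 0 at round 2 than at round 1.

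The dye separated the arrays more than the round did. Pairs of arrays with the kidney in Cy3 correlated at r = 0.714 to 0.836 across features, and pairs with the kidney in Cy5 at 0.577 to 0.678. Arrays of opposite dye correlated at 0.236 to 0.589. Each RNA below is therefore the mean of its dye swap, in which a dye effect that is the same on every array cancels.

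**Figure D1:**
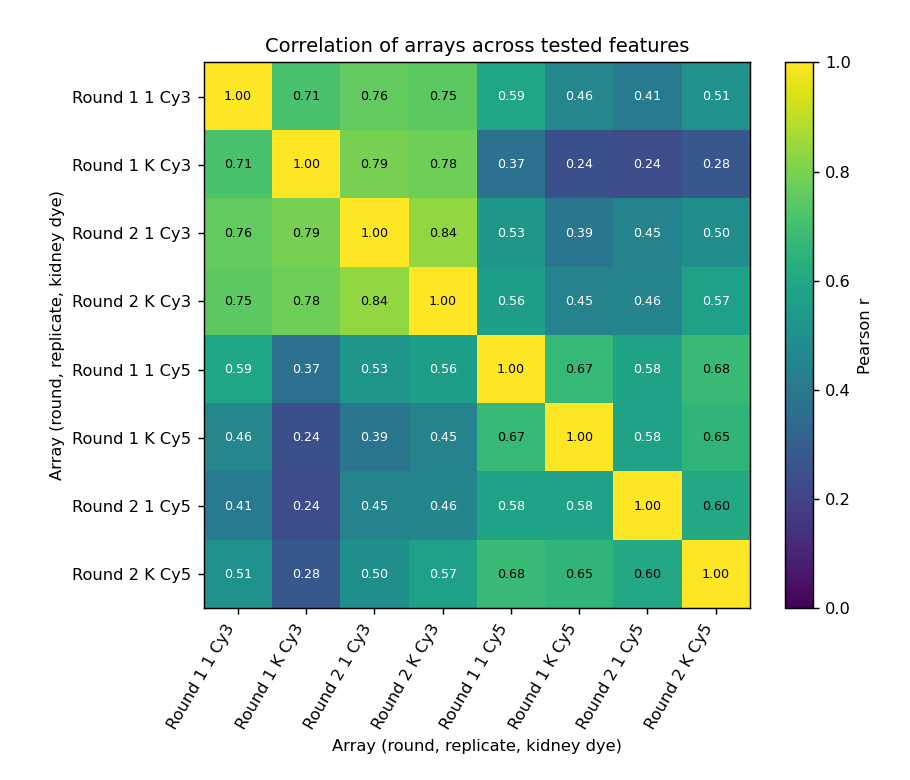
Pearson correlation across tested features between the 8 arrays of rounds 1 and 2, after turning all arrays to kidney over reference. Rows and columns name the round, replicate and kidney dye. The block of 4 Cy3 arrays (0.714 to 0.836) stands above the pairs of opposite dye (0.236 to 0.589), and the block of 4 Cy5 arrays (0.577 to 0.678) overlaps them only at its lower end.

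No feature passed the test between the rounds. With limma on the 8 RNAs and Benjamini-Hochberg adjustment, 0 of 5537 features (0%) had an adjusted p under 0.05, and the smallest adjusted p was 0.157. At an unadjusted p under 0.05, 562 features (10.1%) differed, 267 (4.82%) higher and 295 (5.33%) lower at round 2. A p above the threshold does not show that the rounds are equal, since each round has 2 RNAs. Single arrays fitted with a dye term in place of RNA means gave 22 features with an adjusted p under 0.05 in limma, 4 higher and 18 lower, of which 11 are among the 24 named next. That fit treats the arrays of a dye swap as separate samples, although they share an RNA. An exact permutation test of 2 against 2, two-sided, cannot give less than 0.333.

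A difference of at least 1, which is at least 2-fold, in both replicates was found more often in the lower direction, for 102 features (1.84%) against 32 (0.578%) in the higher direction, together 2.42%. The lower group had a median difference of -1.57, and 97 of its 102 features lay above the reference at round 1. Its median level was 1.47 at round 1 and -0.29 at round 2. The higher group had a median difference of 1.63 and median levels of -0.19 and 1.47. These levels describe features chosen for their difference and are no test.

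The split between the directions rests on single arrays. Without the round 1, replicate K, Cy3 array it was 143 higher and 68 lower, and without that of round 2, replicate K, Cy5 it was 91 higher and 65 lower. Without round 2, replicate 1, Cy5 it was 63 and 58. With any other array left out, more features were lower than higher, up to 203 lower against 12 higher without round 1, replicate K, Cy5. In these counts 1 replicate rests on a single dye at 1 of the rounds.

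The split also rests on the centring. Without it, the median feature was 0.96 higher at round 2 (1.17 in replicate 1 and 0.75 in replicate K). Then 1307 features were at least 1 higher in both replicates and 14 were lower, and 2187 were higher and 20 lower at an unadjusted p under 0.05. All differences given here are relative to the median feature.

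**Figure D2:**
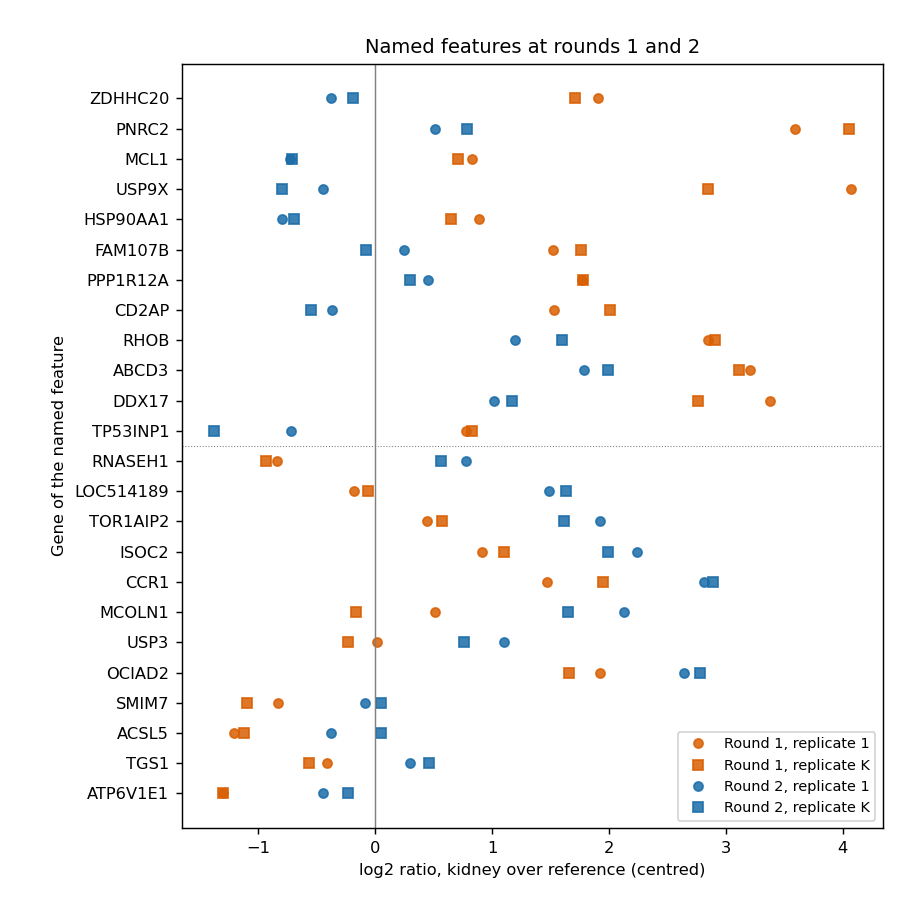
Centred log2 ratio of kidney over reference for the 24 named features in the 4 RNAs of rounds 1 and 2; orange is round 1, blue is round 2, circles are replicate 1 and squares replicate K. The 12 genes above the dotted line are lower at round 2 and the 12 below it are higher; the features were chosen for groups that do not overlap, and none passed the adjusted test.

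As nothing passed, the genes named first are the 12 features in each direction with the smallest unadjusted p among those whose 2 RNAs a round do not overlap. Of all tested features, 1024 (18.5%) were lower and 1224 (22.1%) higher at round 2 without overlap. The adjusted p of the 24 named features ran from 0.157 to 0.322 in limma. Of the 24, 21 had a value on all 8 arrays, and all 21 had the same direction in both dye orientations. They were chosen on means over these same arrays, so this agreement is partly built in and is no test. Over all 5012 features with values on all 8 arrays, the differences in the Cy3 and in the Cy5 arrays correlated at r = 0.275. The standard errors (SE) are those of the limma fit, with 2 RNAs a round. Over the alternative settings that kept the centring and gave a value, 11 of the 12 lower features (all but FAM107B) stayed within 1.5 times of the values given, against 3 of the 12 higher ones (MCOLN1, ACSL5 and ATP6V1E1). The other higher features moved by more in at least 1 setting, for example to 0.70 for LOC514189 and 0.94 for RNASEH1, and TGS1 changed sign.

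Of the 12 lower features, 2 are from genes that handle RNA. PNRC2 had the largest difference among the lower named features with values on all 8 arrays. It encodes a nuclear receptor coactivator that also acts in mRNA decapping. Its ratio was 3.59 and 4.05 at round 1 (replicates 1 and K) and 0.51 and 0.79 at round 2. The difference was -3.17 ± 0.37 (SE, 9.02-fold lower, limma adjusted p = 0.189). Both round 1 RNAs were far above the reference, and both round 2 RNAs were close to it. DDX17, an RNA helicase of splicing and transcription, stood at 3.38 and 2.76 at round 1 and at 1.02 and 1.17 at round 2, a difference of -1.97 ± 0.31 (3.92-fold lower). Here too the rounds were apart in both replicates.

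Among genes of cell survival and the stress response, MCL1 encodes a protein of the BCL2 family that protects cells from apoptosis. It went from above to below the reference, with 0.83 and 0.71 at round 1 and -0.73 and -0.71 at round 2 (-1.49 ± 0.19, 2.80-fold lower, limma adjusted p = 0.189). HSP90AA1, the stress-inducible cytosolic HSP90 chaperone, had 0.89 and 0.65 at round 1 and -0.80 and -0.69 at round 2 (-1.52 ± 0.20). TP53INP1, a p53 target that takes part in autophagy and cell death, had 0.78 and 0.83 at round 1 and -0.72 and -1.38 at round 2 (-1.85 ± 0.30). In all 3 named features the sign of the centred ratio differed between the rounds. That sign is relative to the median feature, which the centring sets to 0. The other tested clone of TP53INP1 did not share the change of sign. Its mean ratio was -2.03 at round 1 and -2.2 at round 2, a difference of -0.16 ± 0.23.

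Genes of the cytoskeleton and of signalling were also among the 12. CD2AP, an adaptor that links membrane proteins to actin and is needed in the filtration slit of the glomerulus, had 1.53 and 2.01 at round 1 and -0.37 and -0.55 at round 2 (-2.23 ± 0.32, 4.69-fold lower). RHOB, a small GTPase that acts on endosomes and actin, had 2.85 and 2.91 at round 1 and 1.20 and 1.60 at round 2 (-1.48 ± 0.22). PPP1R12A, the targeting subunit of myosin phosphatase, had 1.77 and 1.78 at round 1 and 0.45 and 0.30 at round 2 (-1.40 ± 0.19). RHOB and PPP1R12A stayed above the reference at round 2, and CD2AP did not. FAM107B, with values on 7 of the 8 arrays, had 1.52 and 1.76 at round 1 and 0.25 and -0.08 at round 2 (-1.55 ± 0.21). Its dye swap disagreed at round 1 of replicate K, with 3.93 in Cy3 and -0.41 in Cy5, and the difference was -0.47 without the first of these arrays and -2.64 without the second.

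The other 3 lower genes act at membranes or on protein turnover. ABCD3, the fatty acid transporter of the peroxisome membrane, had 3.21 and 3.11 at round 1 and 1.79 and 1.99 at round 2 (-1.27 ± 0.20), so it remained among the more strongly kidney-high features. ZDHHC20, a palmitoyltransferase, had the smallest p of all features. Its ratio was 1.91 and 1.71 at round 1 and -0.38 and -0.19 at round 2 (-2.10 ± 0.20, 4.28-fold lower, limma adjusted p = 0.157). However, 5 of its 14 spots had ratios of small whole numbers. USP9X, a deubiquitinase, had the largest difference of the 102, from 4.07 and 2.85 to -0.45 and -0.80 (-4.08 ± 0.54, 16.9-fold lower). It had values on 5 of the 8 arrays only. Its dye swap disagreed at round 2 of replicate 1, with 2.22 in Cy3 and -3.12 in Cy5. Each other RNA of these rounds rests on 1 array, so USP9X gave no value when that array was left out.

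Among the 12 features higher at round 2, those with the largest differences came from genes of unlike function. RNASEH1, which cuts RNA in RNA-DNA hybrids, was below the reference at round 1 (-0.84 and -0.93) and above it at round 2 (0.78 and 0.56). Its difference was 1.56 ± 0.21 (2.95-fold higher, limma adjusted p = 0.189). In replicate K its dye swaps disagreed in sign at both rounds. They gave 0.31 in Cy3 and -2.16 in Cy5 at round 1, and 1.73 and -0.61 at round 2. MCOLN1, a calcium-permeable channel of the lysosome, had 0.51 and -0.16 at round 1 and 2.13 and 1.65 at round 2 (1.72 ± 0.35, 3.30-fold higher). LOC514189, a locus without a gene name, had -0.18 and -0.06 at round 1 and 1.49 and 1.63 at round 2 (1.68 ± 0.26). It had values on 7 of the 8 arrays, and 6 of its 12 spots had ratios of small whole numbers. The dye swaps of LOC514189 in replicate K also disagreed in sign. They gave 1.26 in Cy3 and -1.39 in Cy5 at round 1, and 3.58 and -0.33 at round 2. ZDHHC20, RHOB, MCOLN1 and LOC514189 lie in the stretch of the array in which the round 1, replicate 1, Cy3 column has at most 1 spot a feature.

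TOR1AIP2, a partner of torsin ATPases in the endoplasmic reticulum, had 0.44 and 0.57 at round 1 and 1.92 and 1.62 at round 2 (1.26 ± 0.23). CCR1, a chemokine receptor of leukocytes, had 1.47 and 1.95 at round 1 and 2.81 and 2.89 at round 2 (1.14 ± 0.23). ISOC2 had 0.91 and 1.10 at round 1 and 2.24 and 1.99 at round 2 (1.11 ± 0.21). All 3 were above the reference in all 4 RNAs. USP3, a deubiquitinase of histones, was near the reference at round 1 (0.02 and -0.23) and above it at round 2 (1.10 and 0.76).

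The remaining 5 higher features differed by less than 1 on the log2 scale. OCIAD2 was high in both rounds, with 1.92 and 1.66 at round 1 and 2.64 and 2.78 at round 2 (0.92 ± 0.20). ACSL5, an acyl-CoA synthetase that activates long-chain fatty acids, was below the reference at round 1 (-1.21 and -1.12) and nearer to it at round 2 (-0.38 and 0.05). ATP6V1E1, a subunit of the proton-pumping V-ATPase, had -1.30 in both round 1 RNAs, and -0.45 and -0.23 at round 2. SMIM7, with differences of 0.94 ± 0.21, and TGS1, which methylates the cap of small nuclear RNAs, with 0.87 ± 0.20, had the limma adjusted p of 0.322 that also holds for ACSL5 and ATP6V1E1. TGS1 rests on 1 array: its dye swap at round 1 of replicate K gave 1.65 in Cy3 and -2.80 in Cy5, and the difference was -0.24 without the Cy5 array and -0.22 with both duplicate spots needed.

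The other rounds place round 1 at the far end for most of these features. In all 12 lower features the mean ratio at round 0 and that at round 3 were both below the one at round 1, and in 8 of the 12 round 3 was below round 2 as well. DDX17 had mean ratios of 1.92, 3.07, 1.10 and -0.09 at rounds 0 to 3, and RHOB had 0.82, 2.88, 1.40 and -0.38. HSP90AA1 was below the reference at round 0 (-1.06), above it at round 1 (0.77), and below it again at rounds 2 and 3 (-0.75 and -1.77). FAM107B differed from these, with 1.15, 1.64, 0.09 and 1.05, so that round 3 was near round 0.

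Of the 12 higher features, 11 had a higher mean at round 0 than at round 1, 12 had a higher mean at round 3 than at round 1, and 5 were higher at round 3 than at round 2. OCIAD2 had means of 2.80, 1.79, 2.71 and 3.06 at rounds 0 to 3. CCR1 was the exception at round 0, with 1.20, 1.71, 2.85 and 2.51. Features chosen for a difference between rounds 1 and 2 tend to have an extreme value at one of them, and the course was not tested.

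**Figure D3:**
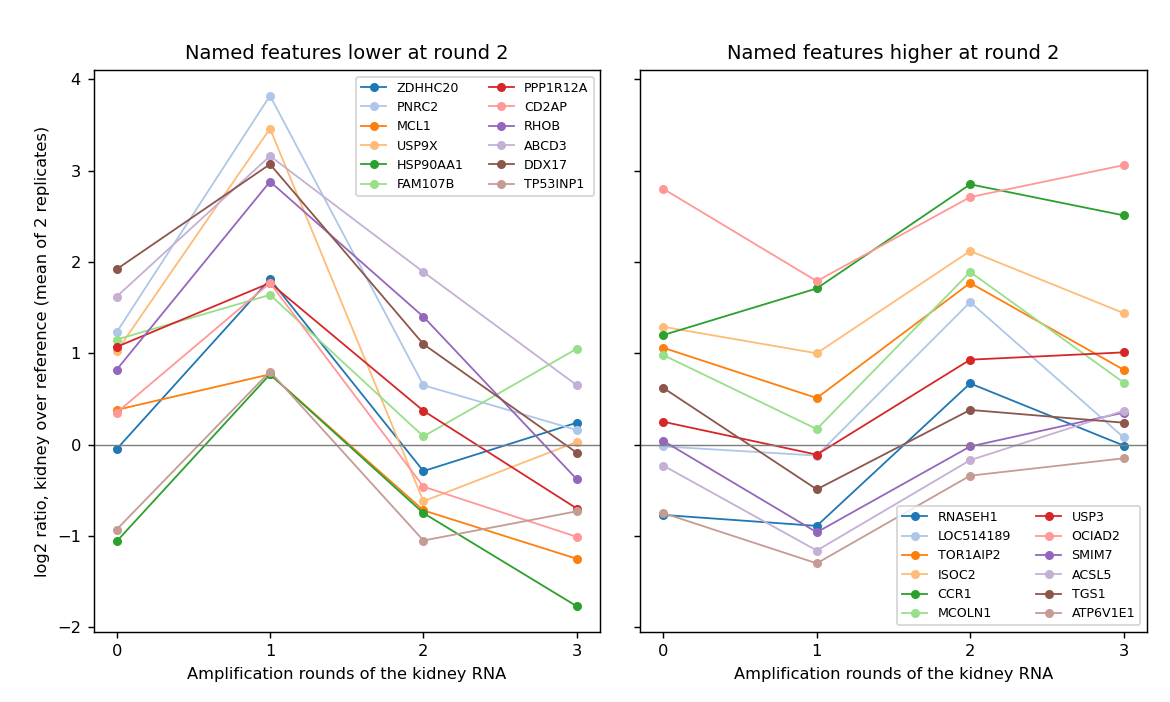
Mean centred log2 ratio of kidney over reference (2 replicates) at rounds 0 to 3 for the 12 named features lower at round 2 (left) and the 12 higher (right). Round 1 is the highest point of all 12 lower features, and round 3 lies below round 2 in 8 of them; of the higher features, 11 lie lower at round 1 than at round 0.

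The difference between the rounds was poorly shared by the replicates. Across the 5537 features, the difference in replicate 1 and that in replicate K correlated at Pearson r = 0.054 and Spearman rho = 0.149, and 58% of features had the same sign in both. Over the 5012 features with values on all 8 arrays, r was 0.155, rho 0.218 and the same-sign share 59.5%. Leaving out single arrays moved r between -0.0787 (without round 2, replicate 1, Cy5) and 0.172 (without round 2, replicate 1, Cy3). The SD of the difference was 0.77 in replicate 1 and 0.83 in replicate K. The mean of the replicates had a median size of 0.31, and 95% of features lay within 1.18 of 0. TXNIP, an inhibitor of thioredoxin, was among the features with a large difference in both replicates (-2.50 in replicate 1 and -2.09 in replicate K). Its ratio was 4.27 and 5.28 at round 1 and 1.76 and 3.19 at round 2 (-2.30 ± 0.58).

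**Figure D4:**
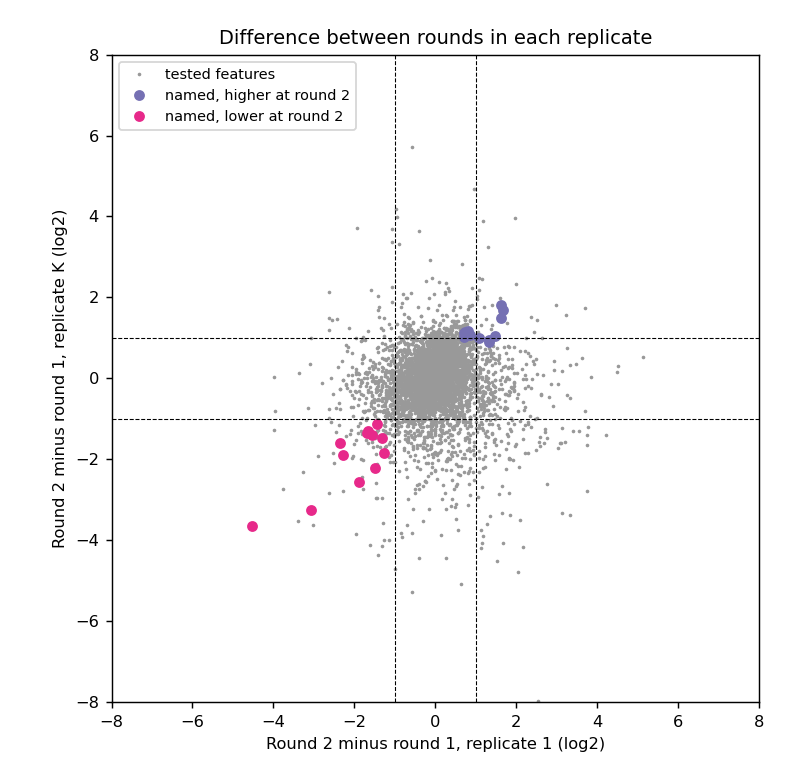
Difference between round 2 and round 1 (log2) of each of the 5537 tested features in replicate 1 (horizontal) and replicate K (vertical), with dashed lines at 1 and -1. The cloud shows little slope (Pearson r = 0.054); the 102 features beyond -1 in both replicates lie in the lower left corner and the 32 beyond 1 in the upper right, and the named features are in colour.

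Separate clones of a gene also shared little of the difference. Over 905 genes with several tested clones, the differences of clone pairs correlated at r = 0.112 and had the same sign in 58.6%, whereas their levels correlated at r = 0.438 at round 1 and 0.486 at round 2. Of the named genes, 7 had 8 other tested clones. Of these, 4 had the direction of the named clone, 0 reached an unadjusted p under 0.05 in limma and 0 reached a difference of 1 in both replicates.

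The second clone of PNRC2 had 0.79 and 1.13 at round 1 and 0.37 and 0.84 at round 2, a difference of -0.36 ± 0.30. The other two clones of USP9X differed by 0.17 ± 0.20 and -0.29 ± 0.28, and the other clone of FAM107B by 0.06 ± 0.22. In these genes the large difference was seen with 1 clone. The other clone of MCOLN1 was below the reference in 3 of the 4 RNAs (-0.83 and 0.09 at round 1, -0.19 and -0.82 at round 2) and gave -0.13 ± 0.37. A pair of SLC4A3 clones, for an anion exchanger, gave opposite signs: -2.89 ± 0.77 for 1 clone (on 7 arrays) and 1.42 ± 0.46 for the other. However, the dye swaps of the lower clone disagreed in sign at round 2. They gave 1.34 in Cy3 and -4.59 in Cy5 in replicate 1, and 1.58 and -3.74 in replicate K. This clone had 9 spots, and its round 1 value in replicate K rests on 1 array.

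Gene lists are described below by their counts at an unadjusted p under 0.05 and their medians, with no test of a list. Over the 25 measured lists, the share of features at that p ran from 0% to 20.7%, beside 10.1% of all tested features, and 19 lists lay within 5 percentage points of it. The other lists were those for fatty acid oxidation (20.7%), immune markers (18.2%), pumps and channels (16.7%) and cytosolic ribosomal proteins (16.1%) above it, and cell cycle genes (4.69%) and histones (0%) below it. A share near that of all features is no result about a list.

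In kidney marker genes, 20 features of 12 genes were tested, and their median ratio was 2.75 at round 1 and 2.82 at round 2. Their sign was used to choose the direction of the ratio and is no result. None of the 20 was higher and 2 were lower at an unadjusted p under 0.05, beside 4.82% and 5.33% of all features. The median difference was -0.17 and the mean -0.43, against 0.03 and -0.02 over all features. By replicate the median of the list was -0.17 in replicate 1 and 0.05 in replicate K. Over the 33 alternative settings that kept the centring it ran from -0.35 to 0.02.

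ATP1B1, the beta subunit of the sodium pump that drives reabsorption in the tubule, had 4.36 and 3.36 at round 1 and 0.36 and 2.09 at round 2 (-2.64 ± 0.67). MME, neprilysin of the brush border, had 0.76 and 2.18 at round 1 and -2.14 and 0.26 at round 2 (-2.41 ± 0.85, on 7 arrays). Of its 9 spots, 4 had ratios of small whole numbers. Its dye swaps in replicate K disagreed in sign. They gave 5.17 in Cy3 and -0.80 in Cy5 at round 1, and 2.81 and -2.30 at round 2. The rounds did not overlap in either gene, but the RNAs of 1 round lay far apart. GPX3, the plasma glutathione peroxidase made by the proximal tubule, had 4.80 and 4.17 at round 1 and 2.75 and 4.24 at round 2, so its rounds overlapped. SLC27A2, a fatty acid transporter of the proximal tubule, had 3.05 and 2.33 at round 1 and 3.05 and 3.15 at round 2.

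Markers of other cell types were measured in the same way. Of 11 immune cell features, 1 was higher and 1 lower at an unadjusted p under 0.05 (18.2%, beside 10.1% of all features). Their median difference was 0.35. CD3D, a chain of the T cell receptor complex, had -1.41 and 0.25 at round 1 and 3.73 and 0.78 at round 2 (2.84 ± 0.98), while IGHM, the heavy chain of IgM, had -1.02 and -1.50 at round 1 and -1.92 and -1.84 at round 2. Of 17 stroma features, 0 were higher and 1 was lower (5.88%, beside 10.1% of all features). Their median was -0.31 in replicate 1 and 0.20 in replicate K. The largest differences were those of COL6A1, a collagen VI chain (-1.01 ± 0.39, on 6 arrays), and SPARC, a matrix protein (0.74 ± 0.31). In bulk RNA, a marker's level against the reference cannot tell fewer cells of a type from less RNA per cell.

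Of 29 trophoblast and placenta features, 0 were higher and 2 lower (6.9%, beside 10.1% of all features). PRP1, a prolactin-related protein, had 1.04 and 1.06 at round 1 and 0.34 and -0.27 at round 2. GCM1, a placental transcription factor, varied more between replicates than between rounds (-1.18 and 1.79 at round 1, 0.38 and 2.24 at round 2).

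Of the lists for the mitochondrion and energy metabolism, those for fatty acid oxidation, mitochondrial ribosomal proteins and oxidative phosphorylation had a positive median in every centred setting, and those for redox enzymes and carbon metabolism did not. Over the 33 alternative settings that kept the centring, the medians ran from 0.15 to 0.46, from 0.18 to 0.40 and from 0.01 to 0.49 for the first 3 lists, from -0.02 to 0.34 for redox enzymes and from -0.11 to 0.31 for carbon metabolism. Of 29 features for fatty acid uptake and oxidation, 6 were higher and 0 lower at an unadjusted p under 0.05 (20.7%, beside 10.1% of all features), and the median difference was 0.33 (0.26 in replicate 1 and 0.38 in replicate K). ACAA1, a peroxisomal thiolase, had -0.78 and 0.77 at round 1 and 2.15 and 1.20 at round 2 (1.68 ± 0.55, on 6 arrays). HADH, which carries out the dehydrogenase step of beta-oxidation, had 2.66 and 2.41 at round 1 and 3.17 and 3.00 at round 2 (0.55 ± 0.21). The largest difference in the lower direction was that of HADHA, a subunit of the trifunctional protein, with 2.66 and 2.22 at round 1 and 1.48 and 1.23 at round 2 (-1.08 ± 0.71, unadjusted p = 0.177 in limma).

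Of 44 features for mitochondrial ribosomal proteins, 5 were higher and 0 lower (11.4%, near the 10.1% of all features), with a median of 0.30. MRPS5 had -0.44 and -0.22 at round 1 and 0.58 and 0.54 at round 2 (0.89 ± 0.21). MRPL38 had the largest difference (1.39 ± 1.03), with round 1 RNAs as far apart as -1.19 and 0.49. MRPL35 lay at the other end (-0.54 ± 0.42).

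Of 53 features for nuclear genes of oxidative phosphorylation, 5 were higher and 0 lower (9.43%, again near the 10.1% of all features), with a median of 0.21. NDUFB8, of complex I, had -0.96 and -1.22 at round 1 and -0.39 and -0.12 at round 2 (0.84 ± 0.21). ATP5F1B, the catalytic beta subunit of ATP synthase, had -0.12 and 0.47 at round 1 and 1.29 and 0.81 at round 2. NDUFA7, also of complex I, went the other way by -1.06 ± 0.59, in replicate 1 only (1.28 and 0.29 at round 1, -1.11 and 0.56 at round 2). Genes encoded by the mitochondrial genome had 0 tested features.

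Of 40 features for redox and detoxification enzymes, 4 were higher and 0 lower (10%, beside 10.1% of all features). Their median was 0.02 in replicate 1 and 0.38 in replicate K. ALDH2, the mitochondrial aldehyde dehydrogenase, had 1.68 and 1.34 at round 1 and 2.07 and 2.61 at round 2. PRDX2, a peroxiredoxin, had -0.61 and -1.19 at round 1 and -0.10 and 0.16 at round 2.

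Of 40 features for glycolysis, the citrate cycle and gluconeogenesis, 3 were higher and 1 lower (10%, beside 10.1% of all features). Their median was 0.12. MDH2 and MDH1, the mitochondrial and the cytosolic malate dehydrogenase, were both higher, by 0.92 ± 0.25 and 0.64 ± 0.19. IDH2, the mitochondrial NADP-dependent isocitrate dehydrogenase, had the largest difference (1.29 ± 0.61). DLD, the lipoamide dehydrogenase of the pyruvate and oxoglutarate complexes, had 1.35 and 1.41 at round 1 and 0.70 and 0.57 at round 2 (-0.74 ± 0.20).

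**Figure D5:**
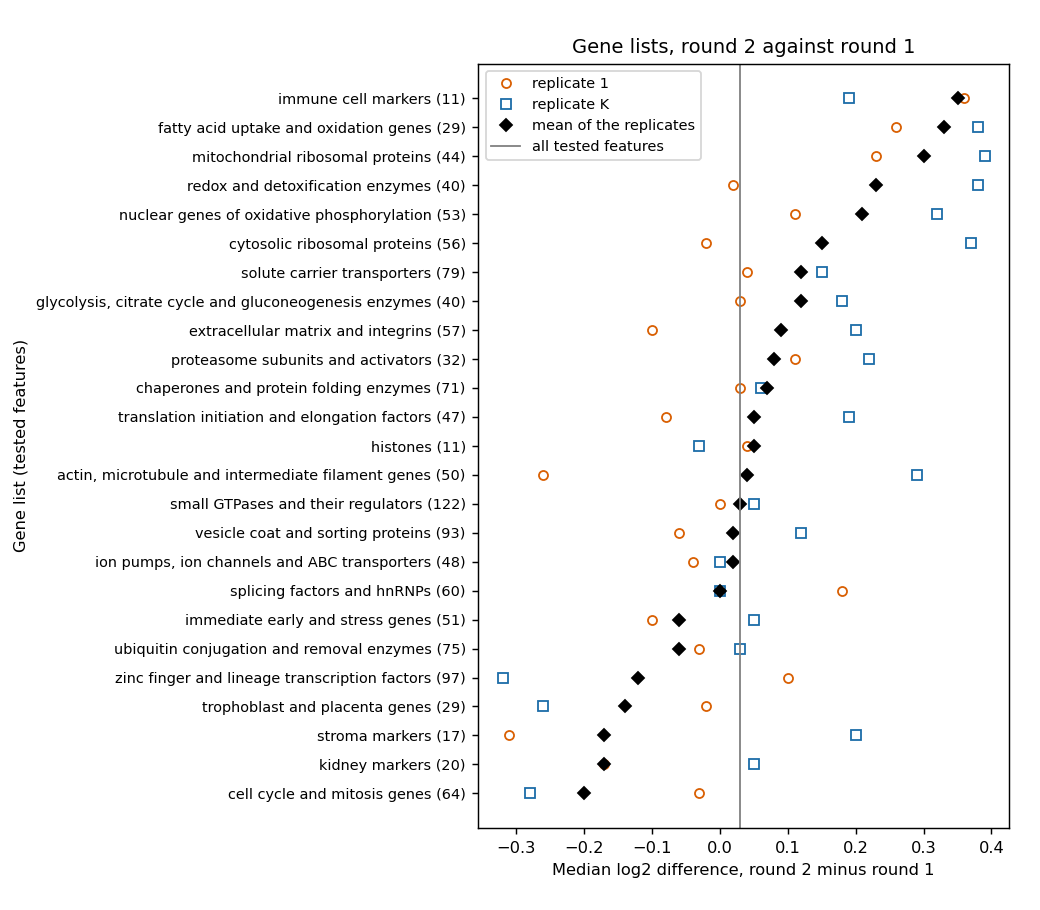
Median log2 difference (round 2 minus round 1) of the tested features of each gene list, with their number in brackets; open circles are replicate 1, open squares replicate K and filled diamonds the mean of the replicates. The grey line is the median of all tested features (0.03). Fatty acid oxidation (0.33) and mitochondrial ribosomal proteins (0.30) lie to its right in both replicates. Cell cycle genes (-0.20) lie to its left, at -0.03 in replicate 1 and -0.28 in replicate K.

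Genes of protein synthesis were low against the reference in both rounds. The 56 features of cytosolic ribosomal proteins had a median ratio of -1.23 at round 1 and -1.05 at round 2. Of them, 8 were higher and 1 lower at an unadjusted p under 0.05 (16.1%, beside 10.1% of all features). The median difference was -0.02 in replicate 1 and 0.37 in replicate K. Both tested clones of RPS3 that are among the 8 gave alike values: 1 had -1.20 and -1.55 at round 1 and -0.61 and -0.29 at round 2, and the other had -1.03 and -1.53, then -0.82 and -0.41. Features among the 8 are higher by choice, so the shared direction of these clones is no result. RPS2 had the largest difference (0.93 ± 0.28). RPS29 was the lower one, with -0.12 and 0.25 at round 1 and -0.91 and -0.54 at round 2.

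Of 47 features for translation factors, 3 were higher and 2 lower (10.6%, beside 10.1% of all features). EIF4H, which assists the helicase that unwinds mRNA at initiation, had 2.05 and 2.80 at round 1 and 0.26 and 0.77 at round 2 (-1.91 ± 0.33). EEF1D, of the elongation factor complex, had -1.04 and -1.06 at round 1 and -0.30 and 0.28 at round 2 (1.04 ± 0.25). EIF5, an initiation factor, had the largest difference downward (-2.63 ± 1.68), with round 2 RNAs at 1.26 and -2.97.

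Of 71 features for chaperones and folding enzymes, 2 were higher and 5 lower (9.86%, beside 10.1% of all features). Their median was 0.07 and their mean -0.02. Beside HSP90AA1, HSPD1 (the mitochondrial HSP60) had 2.76 and 2.66 at round 1 and 1.67 and 0.77 at round 2 (-1.49 ± 0.36), and PFDN4 (a prefoldin subunit) had 0.69 and 0.49, then -0.86 and -0.24. HSP90B1, the HSP90 of the endoplasmic reticulum, was lower by -0.88 ± 0.32. CCT3, a subunit of the cytosolic chaperonin, was higher by 0.76 ± 0.25.

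Of 32 proteasome features, 3 were higher and 0 lower (9.38%, beside 10.1% of all features), with a median of 0.08. PSMB6, a catalytic core subunit, had -1.16 and -1.06 at round 1 and -0.38 and 0.28 at round 2 (1.06 ± 0.27), and PSMC2, an ATPase of the cap, had -1.60 and -1.66, then -0.77 and -0.99. PSMB8, of the immunoproteasome, had overlapping rounds (0.38 and 2.44, then 0.94 and 0.06). Of 75 features for ubiquitin conjugation and removal, 3 were higher and 3 lower (8%, beside 10.1% of all features). Beside USP9X, the lower ones were UBE2R2, a conjugating enzyme (-1.41 ± 0.34), and FBXO31, a substrate receptor (-1.28 ± 0.33). UBE3B, a ligase, had the largest difference upward (1.31 ± 1.11).

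Of 97 features for zinc finger and lineage transcription factors, 2 were higher and 8 lower at an unadjusted p under 0.05 (10.3%, beside 10.1% of all features, 4.82% higher and 5.33% lower), and the median difference was 0.10 in replicate 1 and -0.32 in replicate K. ZNF350 was the zinc finger gene with the highest ratios, 5.41 and 5.29 at round 1 and 3.97 and 3.63 at round 2 (-1.55 ± 0.28). ZNF207, which binds microtubules in mitosis, had 0.89 and 0.82, then -0.60 and -0.66. GATA6 had 0.40 and 0.31 at round 1 and -1.44 and -1.68 at round 2 (-1.92 ± 0.69), whereas GATA2 was higher, by 0.69 ± 0.22. The dye swap of GATA6 disagreed in sign at round 1 of replicate 1, with 1.60 in Cy3 and -0.81 in Cy5. At round 2 of replicate K it gave -0.20 in Cy3 and -3.15 in Cy5. NR2C2AP, a protein that binds a nuclear receptor, had the largest difference upward (1.14 ± 0.49).

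Of 51 immediate early and stress features, 2 were higher and 4 lower (11.8%, beside 10.1% of all features). Beside MCL1 and TXNIP, the lower ones were ZFP36 and BTG2, both of which promote mRNA decay (-0.74 ± 0.25 and -0.73 ± 0.26). JUNB, an AP-1 factor, had -0.93 and -1.59 at round 1 and -0.47 and -0.23 at round 2. TRIB3, a stress-induced pseudokinase, had the largest difference upward (2.00 ± 0.67), on 5 arrays.

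The 64 cell cycle and mitosis features had a median of -0.20 (-0.03 in replicate 1 and -0.28 in replicate K). Of them, 0 were higher and 3 lower at an unadjusted p under 0.05 (4.69%, beside 10.1% of all features). These 3 do other work in the cell: CDC5L (-1.30 ± 0.29) is a splicing factor, CDC42 (-1.08 ± 0.31) a GTPase of cell polarity and KIF5B (-3.25 ± 0.96) a motor that carries cargo along microtubules. KIF5B had 1.63 and 3.35 at round 1 and -2.13 and 0.61 at round 2. However, 7 of its 13 spots had ratios of small whole numbers. Its dye swap at round 1 of replicate K gave 5.32 in Cy3 and 1.38 in Cy5. CDC42BPB, a kinase that CDC42 binds, lay at the other end (1.58 ± 0.78).

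Of 60 splicing features, 4 were higher and 2 lower (10%, beside 10.1% of all features), with a median of 0.00. LSM4, of the ring that binds U6 RNA, had -0.41 and -0.29 at round 1 and 0.36 and 0.61 at round 2, and SRSF3, an SR protein, had -0.31 and 0.05, then -0.93 and -0.85. A clone of PRPF4B, a splicing kinase, had the largest difference downward (-1.07 ± 0.72), while another clone of the same gene was higher by 0.65 ± 0.20. Of 11 histone features, 0 were higher and 0 lower in limma at an unadjusted p under 0.05 (0%, beside 10.1% of all features). Their differences ran from -0.51 ± 0.26 for MACROH2A1 to 0.34 ± 0.23 for H1-2.

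Transport genes had differences in both directions. Of 48 features for ion pumps, channels and ABC transporters, 2 were higher and 6 lower (16.7%, beside 10.1% of all features). Their median was 0.02 and their mean -0.05. ATP1B3, another beta subunit of the sodium pump, had -0.14 and 0.09 at round 1 and -1.06 and -1.30 at round 2 (-1.15 ± 0.29), the direction of ATP1B1. Subunits of the V-ATPase differed in direction. Clones of ATP6V1B2 among the 6 lower features gave -1.04 ± 0.24 and -0.61 ± 0.24, a direction that they share by that choice. ATP6V0B was higher (0.70 ± 0.25), as was ATP6V1E1. ABCA1, the cholesterol exporter, had the largest difference upward (2.97 ± 1.58, on 6 arrays), with round 1 RNAs at 0.78 and -3.85.

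Of 79 solute carrier features, 6 were higher and 3 lower (11.4%, beside 10.1% of all features). SLC25A5, an ADP/ATP carrier of the mitochondrion, had -0.67 and -0.90 at round 1 and -0.08 and 0.16 at round 2 (0.83 ± 0.21). SLC19A2, a thiamine carrier, had 1.11 and 1.09, then 0.33 and 0.41. SLC16A11 had the largest difference upward (1.75 ± 0.77), without an unadjusted p under 0.05.

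Of 93 features for vesicle coats and sorting, 5 were higher and 3 lower (8.6%, beside 10.1% of all features). Members of the p24 cargo receptor family took both directions: TMED5 had 3.43 and 3.10 at round 1 and 1.38 and 1.12 at round 2 (-2.02 ± 0.43), whereas TMED1 had -1.18 and -1.22, then -0.39 and -0.13 (0.94 ± 0.24). Clones of TMED9 were among the 5 higher features as well (0.71 ± 0.25 and 0.98 ± 0.39), a direction that they share by that choice. STX3, a syntaxin of the apical membrane, had the largest difference upward (2.32 ± 1.22), with round 1 RNAs at -2.93 and 1.13.

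Of 122 features for small GTPases and their regulators, 2 were higher and 7 lower (7.38%, beside 10.1% of all features). Their median was 0.03. Beside RHOB, RAB11A of recycling endosomes had 1.13 and 1.15 at round 1 and 0.47 in both RNAs of round 2 (-0.67 ± 0.19). ARHGAP17 had the largest difference (-2.80 ± 0.59), on 5 arrays. RAB8A, of transport to the cell surface, was higher (0.63 ± 0.25).

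Of 50 features for actin, microtubule and intermediate filament genes, 3 were higher and 3 lower (12%, beside 10.1% of all features). Their median was -0.26 in replicate 1 and 0.29 in replicate K. TUBA1A, an alpha tubulin, had -0.19 and 0.32 at round 1 and -1.20 and -1.06 at round 2 (-1.20 ± 0.35). ARPC1A, of the actin-branching ARP2/3 complex, had -0.83 and -0.82, then -0.11 and -0.15 (0.69 ± 0.19). ACTR1B, of the dynactin filament, had the largest difference upward (1.62 ± 0.53).

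Of 57 features for extracellular matrix and integrins, 4 were higher and 1 lower (8.77%, beside 10.1% of all features). Their median was 0.09 and their mean -0.01. LAMA5, the laminin chain of the adult glomerular basement membrane, was higher with both of the clones that are among the 4 (0.62 ± 0.22 on all 8 arrays, and 2.28 ± 0.90 on 6 arrays). Clones among the 4 are higher by choice, so their shared direction is no result. ITGB7, an integrin chain of lymphocytes, had 1.13 and 0.46 at round 1 and 1.94 and 1.70 at round 2. ITGB4, the integrin chain of hemidesmosomes, lay at the other end (-1.67 ± 0.99).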

How the data were processed

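The authors deposited 1 value per spot and array, a log2 ratio of the channels. In 1 deposited column (round 1, replicate 1, Cy3) such ratios precede an empty stretch and 69 closing whole numbers, so that deposited column, taken whole with these 69, is entered as a score. The 69 were treated as missing and its other values used as log2 ratios. The scanner, background correction and normalization: not given in the sources used here. Precision is limited by the number of arrays. Arrays with kidney in Cy3 were turned, values beyond 10 in size were dropped, and the median of an array's listed features was subtracted. Duplicate spots and then dye swaps were averaged.

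A gene is listed for 5693 features, 5598 with 1 symbol and 95 with several, and 2755 are unlisted. A current gene table held 5591 of these, with the same symbol in all 5591.

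The test between rounds used limma 3.58.1 (R 4.3.3) on all 8 RNAs, with 1 mean per round, 4 residual and 2.37 prior degrees of freedom, and Benjamini-Hochberg adjustment over 5537 features. The script was tested on simulated data.

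Named genes are, for each direction, up to 12 features with 1 symbol that pass without overlap, filled up by smallest unadjusted p, plus the member with the largest difference each way in each of 27 lists and other clones of a named gene. Others named had an unadjusted p under 0.05 in a list, or were chosen after their values were seen. The members and lists were chosen with earlier results of these data known. Red cell markers and mitochondrially encoded genes had 0 tested features. Protein length was not analysed here. Alternatives covered centring, scaling, filters, spots, dyes, blocks, samples in the fit and leaving out each array or RNA.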

Additional observations from a re-analysis of the deposited data

Results flagged for a closer look

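In 4 of 54 groups of arrays tested (10 for measures of array quality and 44 for named features), 1 of the 4 arrays lay apart from the other three by Dixon's criterion, which chance alone meets in about 1 in 20 groups. The duplicate spots of the round 2, replicate 1, Cy5 array correlated at 0.496, against 0.749 to 0.801 on the other arrays of round 2. The median absolute deviation of the ratios on the round 1, replicate K, Cy3 array was 1.65, against 0.98 to 1.08 on the other arrays of round 1.

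For MCOLN1, the lysosomal channel that was higher at round 2, the round 1, replicate K, Cy5 array gave -0.95, against 0.46 to 0.63 on the other arrays of round 1. For DDX17, the helicase that was lower at round 2, the round 2, replicate K, Cy3 array gave 1.36, against 0.97 to 1.03 on the other arrays of round 2.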

How the results depend on the processing

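The comparison was repeated under 34 alternatives, 6 of them chosen after seeing the data. In most, 0 features had an adjusted p under 0.05 in limma. With all 16 arrays and a dye term there were 22 (4 higher, 18 lower), and with the RNA added as a random block 32 (10 higher, 22 lower). In the block fit the arrays of 1 RNA had a consensus correlation of -0.0624. A value below 0 makes such a fit more lenient, so the 32 are no stronger a result than the 22. Requiring both duplicate spots gave 1, PNRC2, which was lower. Leaving out samples gave 0 to 3 (0 to 0 higher and 0 to 3 lower). The 3, all without round 1, replicate 1, were ELP6, FCHSD1 and DDX41. There the lone RNA of a round is assumed to vary like the other rounds. The cause of these differences was not tested.

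Features at least 1 higher in both replicates numbered 1307 without centring, 18 with values on all 8 arrays, 73 with kidney in Cy5 only, and 12 to 143 with 1 array left out. Those lower numbered 14 without centring, 53 with both duplicate spots, and 58 to 203 with 1 array left out. The correlation of replicate differences was 0.155 with values on all 8 arrays, -0.00227 with kidney in Cy3 only, and -0.0787 to 0.172 with 1 array left out.

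With the replicate number as a block, 0 features were called, and the replicate block changed no other call. Same-numbered RNAs of rounds 1 and 2 did not deviate together (r = -0.0501).

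Named genes kept their sign in most alternatives. The exceptions were NDUFA7 (0.32) and TGS1 (-0.22) with both duplicate spots needed, and, without centring, DLD (0.17), IGHM (0.60), MACROH2A1 (0.41), MRPL35 (0.38), PSMB8 (0.01) and RPS29 (0.13). With a sample left out, differences of both signs were found for IGHM (-1.35 to 0.11), CDC42BPB (-0.50 to 3.65), TGS1 (-0.24 to 1.98), COL6A1 (-2.16 to 0.14), GCM1 (-0.49 to 2.49) and PSMB8 (-1.93 to 0.12). Of 25 gene lists, 8 had a median of 1 sign in all 33 alternatives that kept the centring: cell cycle, fatty acid oxidation, immune, mitochondrial ribosome, oxidative phosphorylation, proteasome, solute carrier and ubiquitin genes. The sign is taken against 0, whereas the median of all features was 0.03. These alternatives reuse the same arrays. The ubiquitin list had medians of -0.03 in replicate 1 and 0.03 in replicate K.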

Other observations

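The genes in these observations had a difference of at least 1 in both replicates. They were chosen after their values were seen, come from no list, and none passed the adjusted test. DDX5, the RNA helicase closest to DDX17, had 2.86 and 2.43 at round 1 and 1.41 in both RNAs of round 2 (-1.23 ± 0.53), and its means at rounds 0 and 3 were 1.12 and 0.28. CNOT7, a deadenylase of mRNA decay, had 1.20 and 1.56 at round 1 and 0.18 and 0.15 at round 2 (-1.22 ± 0.22). PABPC4, a poly(A) binding protein, had 1.13 and 1.66, then -0.01 and -0.28 (-1.54 ± 0.34). Its dye swap disagreed in sign at round 2 of replicate 1, with 1.63 in Cy3 and -1.65 in Cy5.

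Among the 32 higher features, TFEB, the transcription factor of lysosomal genes, had -0.11 and 1.24 at round 1 and 2.40 and 2.68 at round 2 (1.97 ± 0.66), with 5 of its 12 spots at ratios of small whole numbers. MAN2B1, the lysosomal alpha-mannosidase, had -0.39 and 1.47, then 1.22 and 3.11 (1.62 ± 0.77), so its rounds overlapped. FOLR1, the folate receptor of the proximal tubule, had 1.49 and 2.14 at round 1 and 2.52 and 4.17 at round 2 (1.53 ± 0.54), and CGN, the tight junction protein cingulin, had 1.06 and 1.26, then 2.43 and 2.49 (1.30 ± 0.35). The dye swap of CGN disagreed in sign at round 1 of replicate K, with 2.91 in Cy3 and -0.39 in Cy5.

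Of the 2755 features without a listed gene, 2470 had values in these RNAs. Among them, 42 (1.7%) were higher and 90 (3.64%) lower by at least 1 in both replicates, and the replicate differences correlated at r = 0.0552.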
